A study of Homo sapiens with 12 samples.

Results

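The mRNAs of 50 genes of mitosis were followed in HL-60 cells, an established human promyelocytic leukemia line, during treatment with all-trans retinoic acid (ATRA). The genes were taken as a list of symbols that was drawn up with earlier results of these data known. They cover entry into mitosis, the spindle checkpoint, the kinetochore, the spindle, cytokinesis and the condensin complexes. All 50 are among the 26364 genes listed in the files, and all 50 had enough reads to be tested. The libraries fall into 4 groups of 3 replicates, namely 0 h (no time in ATRA), 4 h, 2 d and 4 d, with ATRA at 1 µM. All groups are the same line grown in the same serum-containing medium. Treated libraries were compared only with the 0 h libraries and with each other, since untreated libraries of the later times were not analysed here. Time in culture and time in ATRA therefore cannot be told apart. The labels do not say whether replicates came from separate cultures, so the tests measure variation among these libraries, some or all of which may be technical.

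As background, a cell enters mitosis when cyclin B with CDK1 becomes active, condensin compacts the chromosomes and kinetochores assembled on centromeres capture spindle microtubules. The spindle checkpoint holds the anaphase-promoting complex until every kinetochore is attached, after which securin and cyclin B are destroyed, separase cleaves cohesin and the cell divides. Most of these genes are transcribed late in the cell cycle and are low in cells that have stopped dividing, and ATRA is known to make HL-60 cells mature toward neutrophils, which do not divide.

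Levels are CPM, the reads of a gene scaled to the same total of gene reads in each library, with trimmed mean of M values (TMM) factors. Group levels are mean ± SD with n = 3. Changes are log2 fold changes ± SE from 1 fit to all 12 libraries with edgeR's quasi-likelihood test. A gene was called higher or lower at a Benjamini-Hochberg adjusted p under 0.05 over the 12671 genes tested. Library depth ran from 7866757 to 13658177 reads in genes, and the 50 genes held 0.255% to 0.528% of them. The libraries 0 h replicate 2, 4 h replicate 3 and 4 d replicate 1 stood apart on GC content, with slopes of 0.485, 0.361 and 0.31 log2 units per 10 points of GC against the mates of their group. The other 9 libraries had -0.347 to 0.058. The 50 genes have a median transcript GC content of 43.8%, against 48.4% for tested genes at 10 CPM or more. Their median level in 0 h replicate 2 lay 0.338 log2 units under that of its mates. In 4 h replicate 1, 22265 genes had a read, against 15198 to 15798 in the others. The 8 myeloid markers, all detected, summed to 31433 to 44891 CPM at 0 h, 40314 to 68253 at 4 h, 30976 to 38955 at 2 d and 12187 to 13185 at 4 d. Most of that sum is MPO (23325 to 36060 CPM at 0 h), and at 4 d against 0 h 5 of the 8 were lower and 2 higher. CSF3R went from 276 to 587 CPM at 0 h to 1719 to 3387 CPM at 4 d. Among markers of other cell types, the T cell gene CD3E ran from 0.460 to 0.682 CPM at 0 h and from 4.56 to 7.32 CPM at 4 d, and the fibroblast gene COL1A1 from 0.368 to 1.82 and from 5.55 to 12.6 CPM. The other markers of those 2 lists, CD3D and COL1A2, were at 0 to 0.0991 CPM and at 0 in the 4 d libraries. The summed erythroid, megakaryocyte and epithelial markers reached at most 1.10 CPM in any library. The part of these marker changes in the results was not tested.

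Of the 50 mRNAs, 46 were called lower at 4 d than at 2 d, where 13.5% of all tested genes were called lower. Summed over the genes, their level was 4105 ± 358 CPM at 0 h (3698 to 4370), 4698 ± 133 CPM at 4 h (4546 to 4787), 4977 ± 249 CPM at 2 d (4732 to 5230) and 2870 ± 131 CPM at 4 d (2719 to 2947). Every 4 h and 2 d sum lay above the 0 h sums and overlapped each other, and the 4 d sums lay below all others. A sum weighs genes of high CPM most, and few single genes passed the test at 4 h (1 of 50) or at 2 d (9 higher and 1 lower) against 0 h. Of all tested genes, 2% were called higher and 4.23% lower at 4 h, and 16.9% and 18.7% at 2 d. By group mean, 25 genes were highest at 4 h, 19 at 2 d, 6 at 0 h and none at 4 d, while 42 were lowest at 4 d. In bulk RNA, fewer dividing cells and less of an mRNA per cell cannot be told apart.

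**Figure D1:**
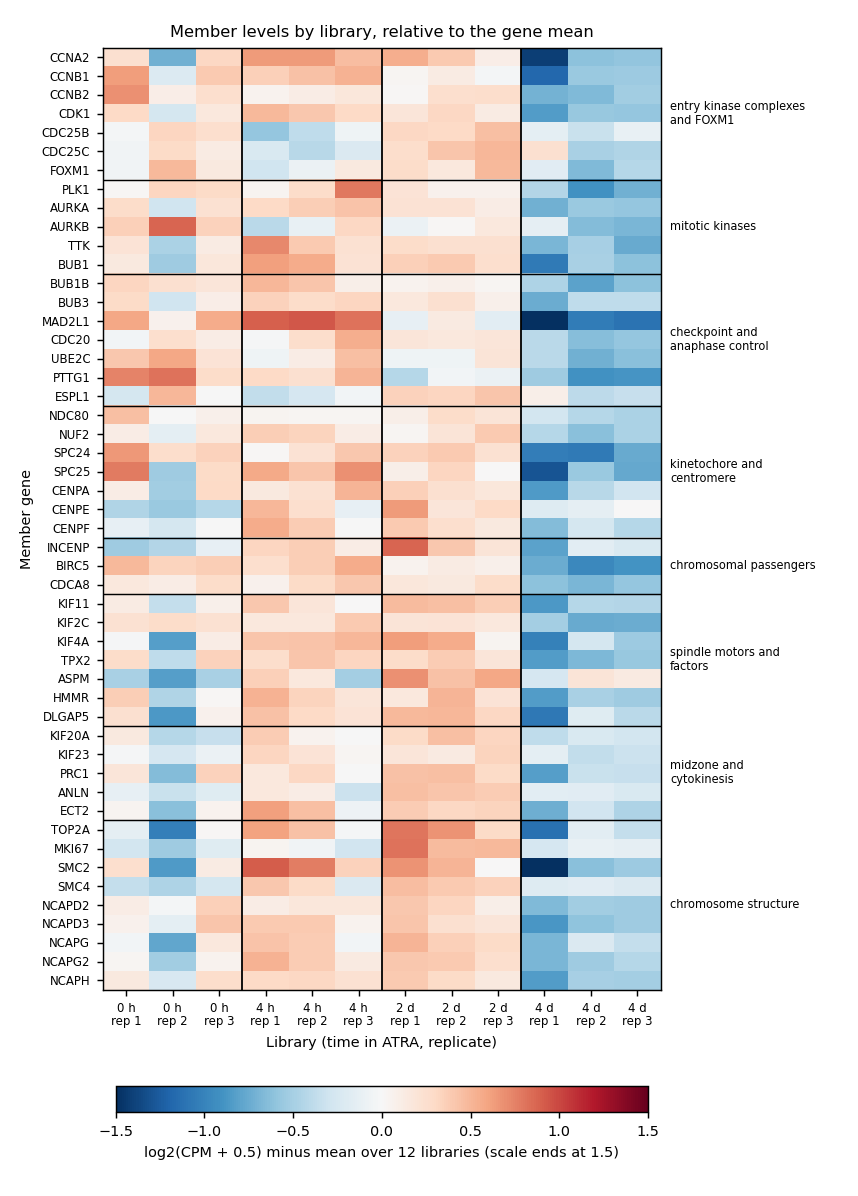
Level of each of the 50 genes (rows, grouped by role) in each of the 12 libraries (columns, by time in ATRA and replicate), as log2(CPM + 0.5) minus the gene's mean over the 12 libraries. In 42 rows the 4 d columns have the lowest mean, in 44 rows the 4 h or the 2 d columns have the highest, and 0 h replicate 2 is paler or bluer than its mates in many rows.

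Against 0 h, the 4 h libraries gave 1 call among the 50, CENPE, which was higher. Over all tested genes 2% were called higher and 4.23% lower. No gene of the 50 was called lower by edgeR, and 17 had an unadjusted p under 0.05 in either direction. The share of all genes with an unadjusted p under 0.05 was not taken, here or for the counts at that rule below. DESeq2 called 3 higher and 1 lower, beside 4.16% and 6.41% of all genes. The median change of the 50 was 0.24, or 0.12 without 0 h replicate 2, against 0.004 over all tested genes. Without the 3 libraries apart on GC content 14 of the 50 were called higher and 3 lower, beside 12.3% and 12.6% of all genes. Without 4 h replicate 3 alone 6 were called higher and 2 lower, beside 6.15% and 5.59% of all genes. Across the 50 genes the change at 4 h followed transcript GC content with a Spearman rho of -0.652 (Pearson r -0.61), where points share the same 6 libraries. Over all tested genes rho was -0.504. The part of GC content in the 4 h values was not tested beyond a fit with GC and length offsets, in which the median became 0.12.

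At 2 d against 0 h, 9 of the 50 were called higher and 1 lower, where 16.9% of all genes were called higher and 18.7% lower. The 9 were INCENP, KIF20A, ANLN, TOP2A, MKI67, SMC4, NCAPG2, ASPM and CENPE, and the gene called lower was PTTG1. The median change was 0.23, or 0.09 without 0 h replicate 2, and the changes ran from -0.81 to 1.17. Without the 3 libraries apart on GC content 16 were called higher and 8 lower, beside 25.5% and 27.3% of all genes. The number called lower was 3 without 4 d replicate 1 and 2 without 0 h replicate 2 or 4 h replicate 3. The number called higher ran from 6 (without 2 d replicate 1 or 2) to 11 over the fits without 1 library. Of all genes, these fits called 12.7% to 20.5% lower and 11.4% to 18.1% higher.

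At 4 d against 0 h, 29 of the 50 were called lower and 1, ASPM, higher, beside 29.7% and 28.1% of all genes. The median change was -0.63, against 0 over all tested genes. In 8 genes the fall was at least 2-fold, where 17.6% of all genes fell by as much: MAD2L1, SPC24, PTTG1, BIRC5, SPC25, CCNB1, AURKB and CCNB2. For 28 of the 50 the 4 d libraries lay below all 0 h libraries, which held for 29.9% of all genes. Without 0 h replicate 2 the number called lower was 37, beside 29.7% of all genes. Without the 3 libraries apart on GC content it was 40, beside 34.3% of all genes.

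Between 2 d and 4 d, 46 of the 50 were called lower and none higher, while 13.5% of all genes were called lower and 13.1% higher. DESeq2 and limma-voom each called 47 lower and none higher, where they called 14.2% and 13.4% of all genes lower. All 50 fitted changes were below 0, and all 50 had an unadjusted p under 0.05, a rule for which no share of all genes was taken. The changes ran from -1.32 for SPC24 to -0.49 for CENPE, with a median of -0.81 against -0.003 over all tested genes. Fitted changes were below 0 in 50.2% of all genes. In all 50 genes each 4 d library lay below each 2 d library, which held for 24.7% of all genes. The genes not called were AURKB, ESPL1, CENPE and ASPM. As a share of the 2 d level, the 4 d mean ran from 39.9% in SPC24 to 71.0% in CENPE, and 9 called genes fell at least 2-fold, against 4.86% of all genes. Leaving out single libraries gave 34 (without 2 d replicate 2) to 48 called lower, where 8.46% to 16.4% of all genes were called lower. At least 1 such fit lost the call of 17 of the 46 genes: CCNB1, CDC25B, CDC25C, FOXM1, BUB3, UBE2C, PTTG1, NDC80, SPC25, CENPA, DLGAP5, KIF20A, KIF23, ECT2, TOP2A, SMC4 and NCAPG. CDC25C was lost in 9 of the 12 such fits, with an edgeR adjusted p of up to 0.18. It was also lost with RLE factors, no filter on low counts and a mean CPM of at least 1. The 6 libraries of the comparison, a replicate block and GC and length offsets lost it too (edgeR adjusted p = 0.0527 to 0.0872 over these fits). Of the 4 genes not called each was called in at least 1 fit without a single library. With the 3 libraries apart on GC content left out, all 50 were called lower, beside 21.9% of all genes. The comparisons against 0 h share the 0 h libraries, and those that involve 2 d share the 2 d libraries, so they are not independent of each other.

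At 2 d against 4 h, 5 of the 50 were called higher, CDC25B, CDC25C, ESPL1, ANLN and MKI67, and 2 lower, MAD2L1 and PTTG1. Over all genes 16.5% were called higher and 18% lower. The median change of the 50 was -0.01. Without 4 h replicate 2, 2 d replicate 2 or 2 d replicate 3, in turn, 2 were called higher and 1 lower, and without 2 d replicate 1, 4 d replicate 2 or 4 d replicate 3 the number called higher was 3. Without 4 h replicate 1, 2 d replicate 1 or 4 d replicate 3 the number called lower was 1. Of all genes, the fits without 1 library called 12.7% to 20.6% lower and 11.9% to 18.9% higher.

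**Figure D2:**
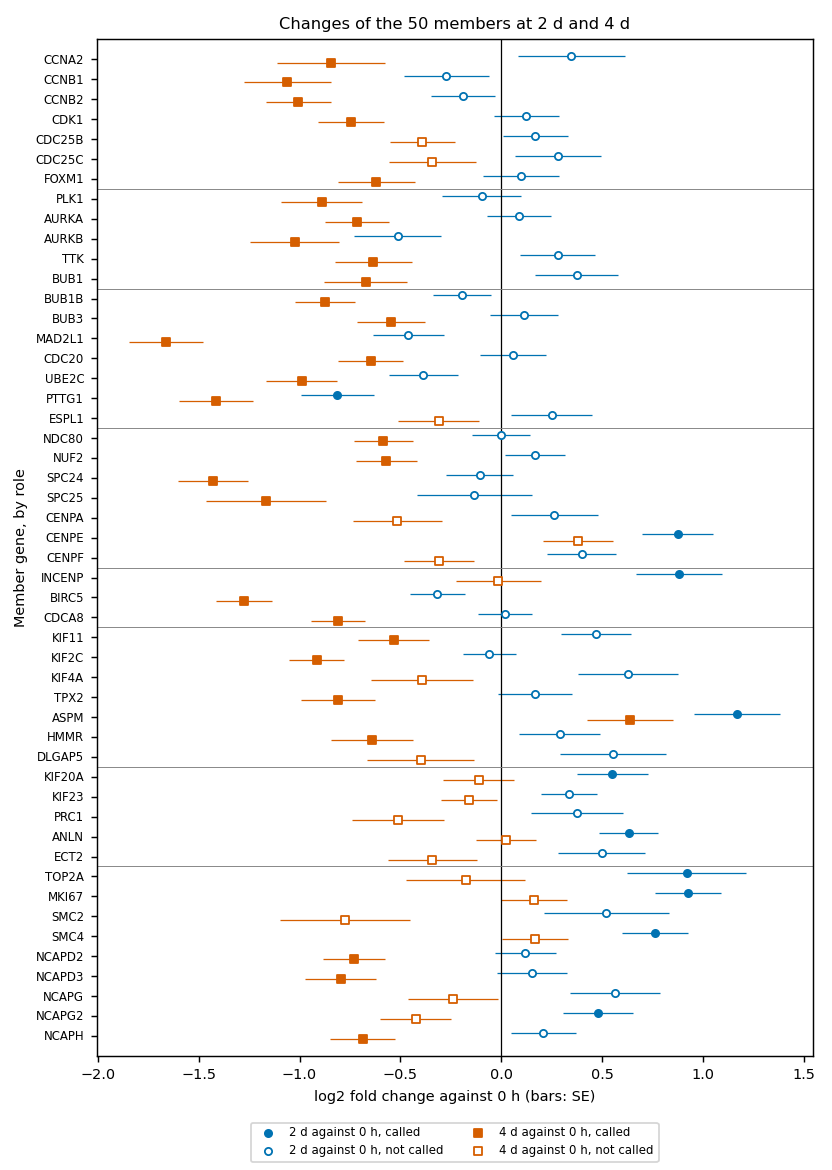
Log2 fold change of each of the 50 genes against 0 h (x axis, bars give the SE) at 2 d (blue circles) and 4 d (orange squares), with genes by role on the y axis and filled symbols for adjusted p under 0.05. In every row the 4 d square lies left of the 2 d circle, from the pair of MAD2L1 at -0.46 and -1.66 to that of ASPM at 1.17 and 0.64.

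The promoters of these genes were searched for elements known from late cell cycle genes. The genes were picked for their part in mitosis, so the shares below describe the list. The part of these elements in the change between 2 d and 4 d was not tested. The cell cycle genes homology region (CHR, TTTGAA) is bound by MuvB complexes, which repress these genes in resting cells and, with B-MYB and FOXM1, activate them in dividing cells. CCAAT boxes (CCAAT), bound by NF-Y, often lie upstream of it. RefSeq promoters (GRCh38.p14, 250 bases before to 50 after the start) were matched by symbol for 43 of the 50 genes. The other 7 are FOXM1, AURKA, TTK, BUB3, UBE2C, BIRC5 and TPX2. The stretches below end before the annotated start, overlap no GENCODE 29 exon and are written 5′ to 3′ on the gene's strand. They are examples that show how near the start and how near each other the elements lie. All of them hold both elements, which 51.2% of the 43 promoters did, so they do not stand for the whole list. Capitals mark TTTGAA and CCAAT on either strand (TTCAAA and ATTGG on the other).
CDK1: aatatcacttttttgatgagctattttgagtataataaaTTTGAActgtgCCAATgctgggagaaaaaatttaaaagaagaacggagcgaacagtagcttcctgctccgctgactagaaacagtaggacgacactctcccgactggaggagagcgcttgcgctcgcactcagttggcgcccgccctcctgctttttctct
ESPL1: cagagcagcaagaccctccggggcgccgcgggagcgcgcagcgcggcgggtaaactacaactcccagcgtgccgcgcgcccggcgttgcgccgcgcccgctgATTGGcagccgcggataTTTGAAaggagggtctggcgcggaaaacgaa
CDC20: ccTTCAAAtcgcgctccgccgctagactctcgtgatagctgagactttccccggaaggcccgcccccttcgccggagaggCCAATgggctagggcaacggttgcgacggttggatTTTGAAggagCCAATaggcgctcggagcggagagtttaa
KIF11: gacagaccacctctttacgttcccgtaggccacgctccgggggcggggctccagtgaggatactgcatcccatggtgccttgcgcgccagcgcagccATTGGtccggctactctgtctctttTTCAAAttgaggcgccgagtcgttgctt
KIF4A: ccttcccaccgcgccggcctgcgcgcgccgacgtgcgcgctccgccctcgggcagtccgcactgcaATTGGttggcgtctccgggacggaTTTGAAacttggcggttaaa
ASPM: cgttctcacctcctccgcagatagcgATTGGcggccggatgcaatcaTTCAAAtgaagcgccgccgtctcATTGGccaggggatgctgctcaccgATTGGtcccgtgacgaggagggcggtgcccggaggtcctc
MKI67: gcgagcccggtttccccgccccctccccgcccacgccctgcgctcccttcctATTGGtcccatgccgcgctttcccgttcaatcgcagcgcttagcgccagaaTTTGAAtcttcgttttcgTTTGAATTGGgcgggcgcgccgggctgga
TOP2A: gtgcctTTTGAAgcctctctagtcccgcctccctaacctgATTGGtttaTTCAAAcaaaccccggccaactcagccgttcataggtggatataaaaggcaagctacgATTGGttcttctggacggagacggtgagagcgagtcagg

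These stretches lie at chr10:60778131-60778330 (plus strand) for CDK1, chr12:53268149-53268298 (plus) for ESPL1, chr1:43358801-43358954 (plus) for CDC20 and chr10:92592980-92593129 (plus) for KIF11. KIF4A is at chrX:70289980-70290089 (plus), ASPM at chr1:197146695-197146829 (minus), MKI67 at chr10:128126424-128126573 (minus) and TOP2A at chr17:40417951-40418096 (minus). In ESPL1, KIF11 and KIF4A 1 CHR begins 31, 28 and 34 bases before the start with an inverted CCAAT box upstream of it, at 48, 53 and 58 bases. The CHR of KIF11 is on the other strand. CDK1 has its CHR farther out, at 161 bases before the start, and ASPM at 113 bases, on the other strand, among 3 inverted CCAAT boxes. The whole promoter window of ASPM holds 4 such boxes, and the one at 25 bases lies outside the stretch shown. CDC20, MKI67 and TOP2A show 2 CHR matches each, and in MKI67 the nearer one, at 29 bases, overlaps an inverted CCAAT box. In CDC20 and TOP2A 1 of the 2 matches is on the other strand.

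Of the 43 promoters 69.8% held TTTGAA on either strand, against 9.86% of the 9351 promoters of tested genes and 15.2% of all 35116 promoters of that length. CCAAT was found in 69.8% against 36.6%, and both in 51.2% against 4.07%, where overlapping matches of the 2 motifs were counted. In 17 genes (39.5%) a CHR began within 35 bases before the start, which held for 1.08% of tested genes. E2F sites (TTTGGCGC, TTTCCCGC or TTTCGCGC) were found in 4.65%, close to the 4.69% of tested genes. In 44 promoters of DNA replication genes the shares were 4.55% for TTTGAA, 56.8% for CCAAT, 2.27% for both and 45.5% for E2F sites. A share of CCAAT above that of tested genes was thus found in both lists. Of the 43 genes, 26 had a CHR from 100 bases before to 50 after the start and 17 had none there. Their median changes were 0.36 and 0.17 at 2 d against 0 h and -0.51 and -0.73 at 4 d against 0 h, where 11 of the 26 and 11 of the 17 were called lower. The medians at 4 d against 2 d were -0.81 and -0.85. The difference between the 26 and the 17 was not tested. A match describes these letters in this window and not a bound site.

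**Figure D3:**
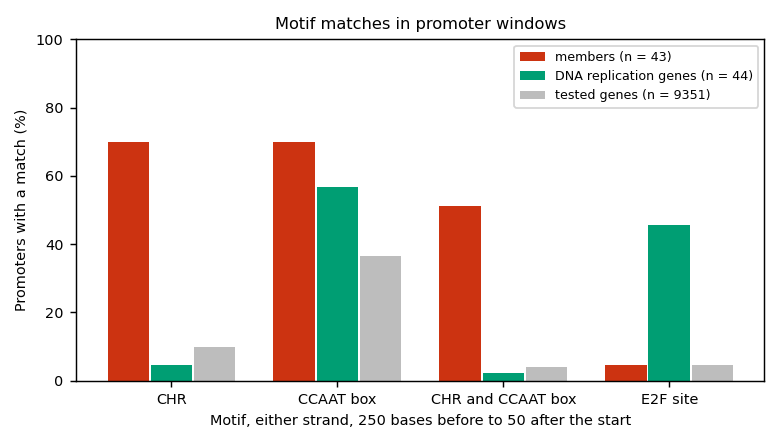
Share of promoters (y axis, percent) with a match to each motif on either strand, for 43 of the 50 mitosis genes (red), 44 DNA replication genes (green) and 9351 tested genes (grey). The mitosis genes stand at 69.8% for CHR where replication genes stand at 4.55%, and the order is the other way for E2F sites, 4.65% and 45.5%.

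The counts by role that follow stand beside the shares of all genes given above, 16.9% higher at 2 d and 29.7% lower at 4 d against 0 h and 13.5% lower at 4 d against 2 d. Of the 7 genes of entry into mitosis, 5 were lower at 4 d than at 0 h and all 7 lower than at 2 d. CCNA2, CCNB1 and CCNB2 encode the cyclins A and B, CDK1 their kinase, CDC25B and CDC25C the phosphatases that activate it, and FOXM1 a transcription factor of late cell cycle genes. None of the 7 was called at 2 d against 0 h with edgeR (none at an unadjusted p under 0.05). CCNB1 had the largest fall against 0 h, from 50.6 ± 14.15 to 24.2 ± 5.76 CPM. It stood at 63.1, 35.2 and 53.5 CPM at 0 h, 52.1, 55.014 and 58.2 at 4 h, 41.4, 44.3 and 39.8 at 2 d, and 17.6, 27.4 and 27.7 at 4 d (169 to 758 reads). The 4 d libraries all lay below the 0 h libraries, and the log2 fold change was -1.06 ± 0.21 (edgeR adjusted p = 0.000858). FOXM1 stood at 90.6, 132 and 104.44 CPM at 0 h, 76.2, 88.9 and 105 at 4 h, 114, 105 and 132 at 2 d, and 83.7, 59.5 and 69.8 at 4 d (600 to 1453 reads). Its fall at 4 d was -0.62 ± 0.19 against 0 h (edgeR adjusted p = 0.0128), with 4 d libraries below all 0 h libraries. The phosphatase genes followed another course, with their lowest group mean at 4 h. CDC25B stood at 82.2, 105 and 99.8 CPM at 0 h, 55.8, 63.9 and 80.1 at 4 h, 104.02, 103 and 115 at 2 d, and 75.2, 66.2 and 77.2 at 4 d (609 to 1364 reads). CDC25C stood at 8.64, 11.1 and 9.84 CPM at 0 h, 7.60, 6.6046 and 7.63 at 4 h, 10.9, 12.2 and 12.9 at 2 d, and 10.7, 6.25 and 6.45 at 4 d (63 to 161 reads). Every 2 d library was above every 4 h library for both, and they rose from 4 h to 2 d by 0.69 ± 0.16 and 0.72 ± 0.21 (edgeR adjusted p = 0.00523 and 0.0197). Against 0 h neither was called at 4 d, with changes of -0.39 ± 0.16 and -0.34 ± 0.22. The 4 d replicate 1 of CDC25C lay within the 0 h range. CDC25B was called lower when 0 h replicate 1, 4 h replicate 1 or 4 h replicate 3 was left out (0.0249 to 0.0351), and CDC25C without 4 d replicate 1 (0.0144), where parentheses give edgeR adjusted p. CDC25B was also called lower with GC and length offsets (0.000905), at -0.537. The other falls at 4 d against 0 h were -1.01 ± 0.16 for CCNB2, -0.84 ± 0.27 for CCNA2 and -0.74 ± 0.16 for CDK1. The 4 d call against 0 h was lost for CCNA2 when 0 h replicates 1 and 3 and 4 d replicate 1 were left out in turn (0.0587 to 0.0695). That of FOXM1 was lost when 4 d replicate 2 was left out (0.057). The rise of CDC25C from 4 h to 2 d was lost when 4 h replicate 2 and 2 d replicates 2 and 3 were left out in turn (0.0591 to 0.0775).

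All 5 mitotic kinase genes were lower at 4 d than at 0 h. PLK1 acts from entry to cytokinesis, AURKA at the spindle poles, AURKB in the chromosomal passenger complex, and TTK (MPS1) and BUB1 at unattached kinetochores. None was called at 2 d against 0 h with edgeR (1 at an unadjusted p under 0.05). PLK1 stood at 131, 161 and 158 CPM at 0 h, 133, 157 and 224 at 4 h, 149.6, 135 and 135 at 2 d, and 95.6, 68.9 and 78.0 at 4 d (695 to 2641 reads). Its 4 d libraries were below all others, at -0.89 ± 0.20 against 0 h (edgeR adjusted p = 0.00178). AURKB had the largest fall against 0 h and stood at 73.4, 105 and 72.6 CPM at 0 h, 43.2, 53.1 and 71.1 at 4 h, 54.0, 57.8 and 64.1 at 2 d, and 52.0, 36.4 and 35.4 at 4 d (367 to 1157 reads). Every later library lay below the 0 h libraries. The change was -0.51 ± 0.22 at 2 d (edgeR adjusted p = 0.081, not called, but called without 4 d replicate 1 at 0.0447) and -1.02 ± 0.22 at 4 d (edgeR adjusted p = 0.00134). It was the only kinase gene of the 5 not called between 2 d and 4 d, at -0.51 ± 0.22 (edgeR adjusted p = 0.105), and that call was made without 4 d replicate 1 (0.0361). TTK had the smallest fall against 0 h and stood at 32.4, 20.0 and 30.5 CPM at 0 h, 46.5, 36.9 and 32.8 at 4 h, 34.1, 33.3 and 33.1 at 2 d, and 17.2, 19.6 and 16.5 at 4 d (166 to 509 reads). The group mean of TTK was highest at 4 h, and each 4 d library lay below each 0 h library. The fall was -0.64 ± 0.19 against 0 h (edgeR adjusted p = 0.0114). AURKA and BUB1 were at -0.71 ± 0.16 and -0.67 ± 0.21. The 4 d call against 0 h was lost for TTK when 0 h replicate 1 was left out (0.0524) and for BUB1 when 0 h replicates 1 and 3 and 4 d replicate 1 were left out in turn (0.0524 to 0.0566).

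The genes of the spindle checkpoint and of anaphase hold PTTG1, the only gene of the 50 called lower at 2 d against 0 h, and MAD2L1, which had the largest fall of the 50 at 4 d. BUB1B, BUB3 and MAD2L1 encode subunits of the mitotic checkpoint complex, CDC20 its target and the activator of the anaphase-promoting complex, UBE2C an E2 enzyme of that complex, PTTG1 securin and ESPL1 separase. At 4 d against 0 h 6 of the 7 were called lower and none higher. MAD2L1 stood at 83.6, 58.6 and 82.1 CPM at 0 h, 104.5, 107 and 98.6 at 4 h, 51.4, 61.4 and 50.1 at 2 d, and 18.6, 26.7 and 25.6 at 4 d (179 to 1474 reads). Every 4 h library lay above, and every 4 d library below, all libraries of the other groups. From 4 h to 2 d MAD2L1 fell by 0.93 ± 0.18 (edgeR adjusted p = 0.00132) and was -1.66 ± 0.18 at 4 d against 0 h (edgeR adjusted p = 5.49e-06). At 2 d against 0 h it was -0.46 ± 0.18 and not called (edgeR adjusted p = 0.0582), but was called with DESeq2 (0.0317), without 0 h replicate 2 (0.0113) and without 4 d replicate 1 (0.0353). PTTG1, the inhibitor of separase, was the only gene of the 50 called lower in all 4 comparisons that involve 2 d or 4 d. It stood at 87.2, 91.6 and 62.9 CPM at 0 h, 63.6, 61.1 and 73.7 at 4 h, 38.4, 50.4 and 48.9 at 2 d, and 35.5, 27.4 and 27.9 at 4 d (276 to 1007 reads). The 2 d and 4 d libraries lay below all 0 h libraries. The changes were -0.81 ± 0.18 at 2 d and -1.41 ± 0.18 at 4 d (edgeR adjusted p = 0.00359 and 2.29e-05). Its step from 4 h to 2 d was -0.53 ± 0.18 (edgeR adjusted p = 0.0359) and was lost when 4 h replicates 1, 2 and 3, 2 d replicates 1, 2 and 3 and 4 d replicate 3 were left out in turn (0.0505 to 0.155). Its step from 2 d to 4 d was -0.60 ± 0.18 (edgeR adjusted p = 0.0271), lost when 2 d replicates 2 and 3 and 4 d replicates 2 and 3 were left out in turn (0.0805 to 0.11). ESPL1 was not called at 4 d against 0 h and stood at 114, 192 and 136 CPM at 0 h, 105, 115 and 133 at 4 h, 173, 171 and 182 at 2 d, and 146, 103.9 and 107 at 4 d (1048 to 2254 reads). Its 0 h and 4 d libraries overlapped, at -0.31 ± 0.20, but with GC and length offsets it was called lower (-0.675, edgeR adjusted p = 0.000388). It rose from 4 h to 2 d by 0.58 ± 0.20 (edgeR adjusted p = 0.0403). That rise was lost when 4 h replicates 1 and 2, 2 d replicates 1, 2 and 3 and 4 d replicates 2 and 3 were left out in turn (0.0523 to 0.137). CDC20 stood at 157, 192 and 174 CPM at 0 h, 159.9, 194 and 235 at 4 h, 183, 179.8 and 182 at 2 d, and 122, 103.8 and 108 at 4 d (1047 to 2771 reads). All 4 d libraries lay below those of every other group, at -0.71 ± 0.16 against 2 d (edgeR adjusted p = 0.00683). UBE2C, BUB1B and BUB3 were at -0.99 ± 0.17, -0.87 ± 0.15 and -0.55 ± 0.17 against 0 h at 4 d, and the call of BUB3 was lost when 0 h replicate 1 and 4 d replicate 1 were left out in turn (0.0502 to 0.0619). Reads of PTTG1 could in part come from its near copies, for which the files list 4 reads (PTTG2) and 8 reads (PTTG3P) over all 12 libraries. PTTG1 has 7457.

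At the kinetochore, the 4 genes of the NDC80 complex fell at 4 d against 0 h, while CENPA, CENPE and CENPF did not pass the test. NDC80, NUF2, SPC24 and SPC25 form the rod that binds microtubules, CENPA is the centromeric histone, CENPE a kinesin of chromosome alignment and CENPF a protein of the outer kinetochore. Summed over the 4 NDC80 complex genes, the levels were 113 ± 19.9, 115 ± 0.540, 114 ± 6.65 and 66.0 ± 1.36 CPM at 0 h, 4 h, 2 d and 4 d. SPC24 fell most, standing at 23.9, 18.2 and 19.2 CPM at 0 h, 15.3, 17.6 and 20.1 at 4 h, 19.3, 19.9 and 17.7 at 2 d, and 7.07, 6.94 and 8.71 at 4 d (68 to 263 reads). Its 4 d libraries all lay below those of every other group, at -1.43 ± 0.17 against 0 h and -1.32 ± 0.17 against 2 d (edgeR adjusted p = 1.34e-05 and 0.000169). SPC25, NDC80 and NUF2 were at -1.17 ± 0.30, -0.58 ± 0.14 and -0.57 ± 0.15 against 0 h. With GC and length offsets NUF2 was not called (edgeR adjusted p = 0.0609). CENPE was higher at 4 h and 2 d and stood at 26.1, 24.3 and 26.5 CPM at 0 h, 50.9, 42.7 and 33.0 at 4 h, 56.0, 40.6 and 44.3 at 2 d, and 31.4, 32.7 and 36.0 at 4 d (267 to 654 reads). All later libraries lay above the 0 h libraries. CENPE was 0.72 ± 0.17 at 4 h, 0.87 ± 0.17 at 2 d and 0.38 ± 0.17 at 4 d (edgeR adjusted p = 0.0285, 0.00183 and 0.078, the last not called, but called without 4 h replicate 3 at 0.0443). CENPE has the lowest transcript GC content of the 50, 35.3%, and the 4 h call was lost with GC and length offsets (0.269), with only the 6 libraries of the comparison (0.111) and when 0 h replicates 1, 2 and 3 and 4 h replicates 1 and 2 were left out in turn (0.0588 to 0.141). CENPF stood at 109.8, 99.6 and 119.9 CPM at 0 h, 177, 156 and 119.9 at 4 h, 158, 144 and 132 at 2 d, and 76.4, 100.1 and 89.1 at 4 d (735 to 2146 reads). The 0 h and 4 d libraries overlapped (-0.31 ± 0.17), and from 2 d to 4 d it fell by 0.71 ± 0.17 (edgeR adjusted p = 0.00913). With GC and length offsets CENPF was called lower at 4 d against 0 h (-0.625, edgeR adjusted p = 6.83e-05). CENPA stood at 20.0, 12.6 and 22.8 CPM at 0 h, 20.5, 21.8 and 26.5 at 4 h, 23.8, 21.9 and 20.8 at 2 d, and 9.97, 13.681 and 15.1 at 4 d (96 to 313 reads). It was not called at 4 d against 0 h (-0.52 ± 0.22, edgeR adjusted p = 0.0607), where 0 h replicate 2 lay under its mates and under 2 of the 4 d libraries. Without that library it was called (0.0042).

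The chromosomal passenger complex, which corrects faulty attachments and later marks the spindle midzone, is formed by AURKB with INCENP (scaffold), BIRC5 (survivin) and CDCA8 (borealin). Its 4 genes summed to 353 ± 9.55, 363 ± 30.8, 355 ± 20.0 and 199.99 ± 0.670 CPM at 0 h, 4 h, 2 d and 4 d. BIRC5 stood at 141, 127 and 130.5 CPM at 0 h, 119, 130.2 and 148 at 4 h, 104.19, 109 and 106 at 2 d, and 59.7, 51.2 and 53.7 at 4 d (516 to 1794 reads). Its 4 d libraries all lay below the others, at -1.28 ± 0.14 against 0 h (edgeR adjusted p = 4.81e-06). The 2 d libraries of BIRC5 also lay below all 0 h libraries, at -0.32 ± 0.14, not called (edgeR adjusted p = 0.0848). That change was called lower with DESeq2 (adjusted p = 0.0286) and without 4 h replicate 3 (edgeR adjusted p = 0.0488). INCENP stood at 54.2, 57.9 and 72.6 CPM at 0 h, 99.0, 102 and 85.2 at 4 h, 145, 105 and 90.4 at 2 d, and 45.1, 70.6 and 67.2 at 4 d (434 to 1694 reads). It was higher at 2 d by 0.88 ± 0.21 (edgeR adjusted p = 0.00602), when 2 d replicate 1 was the highest library. At 4 d it overlapped the 0 h libraries (-0.01 ± 0.21). INCENP has the highest transcript GC content of the 50, 59.6%. CDCA8 was at 0.02 ± 0.13 at 2 d and -0.81 ± 0.14 at 4 d against 0 h (edgeR adjusted p = 0.000187 at 4 d).

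**Figure D4:**
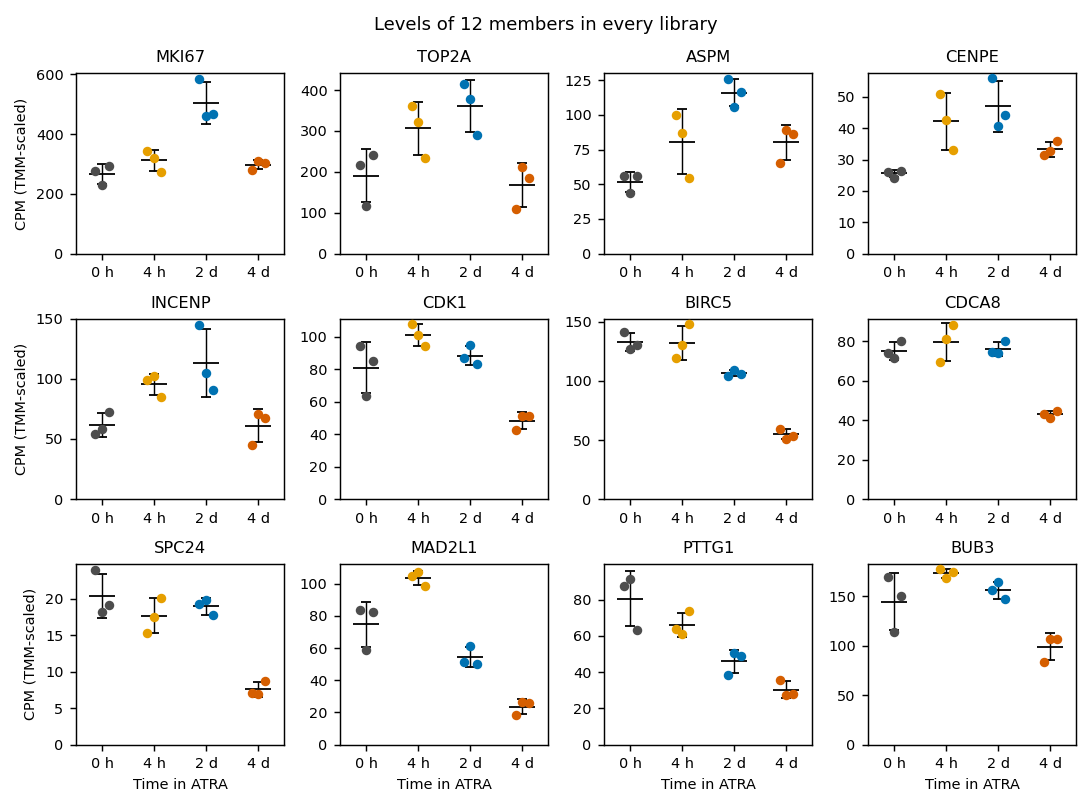
Level in CPM (y axes, from 0) of 12 of the genes in each library, by time in ATRA (x axis), where points are libraries and bars give mean ± SD (n = 3). MKI67, TOP2A, ASPM and INCENP have their highest mean at 2 d, but in TOP2A and INCENP the 2 d and 4 h libraries overlap. MAD2L1 peaks at 4 h, and SPC24 and BIRC5 are lowest at 4 d, with means of 7.57 and 54.9 CPM.

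Among the spindle genes, 4 of the 7 were lower at 4 d than at 0 h and ASPM was higher. KIF11 is the kinesin that pushes the poles apart, KIF2C a kinesin that depolymerizes microtubules, KIF4A a chromosome-bound kinesin, TPX2 an activator of Aurora A, HMMR and DLGAP5 microtubule-binding proteins, and ASPM a protein of the spindle poles. TPX2 stood at 154, 97.0 and 162 CPM at 0 h, 152, 169 and 159 at 4 h, 154, 165 and 143 at 2 d, and 70.8, 79.0 and 85.2 at 4 d (681 to 2330 reads). All 4 d libraries lay below the rest, at -0.81 ± 0.18 against 0 h (edgeR adjusted p = 0.00202). KIF2C had the largest fall of the 7 against 0 h and stood at 114, 117 and 113 CPM at 0 h, 108, 108 and 127 at 4 h, 110.2, 111 and 108 at 2 d, and 67.4, 57.1 and 57.6 at 4 d (576 to 1503 reads). The 4 d libraries lay below all others, and the change was -0.92 ± 0.14 (edgeR adjusted p = 6.82e-05). ASPM was the only gene of the 50 called higher at 4 d, and stood at 55.6, 43.6 and 55.6 CPM at 0 h, 100.2, 87.3 and 54.7 at 4 h, 126, 106 and 116 at 2 d, and 65.4, 89.1 and 86.0 at 4 d (479 to 1469 reads). Every 2 d and 4 d library lay above the 0 h libraries, with 2 d highest. ASPM rose by 1.17 ± 0.21 at 2 d and 0.64 ± 0.21 at 4 d (edgeR adjusted p = 0.00101 and 0.0204), and from 2 d to 4 d was -0.53 ± 0.21 (edgeR adjusted p = 0.0793, not called, but called without 4 h replicate 3 at 0.0258). The 4 d call was lost when 0 h replicate 2 and 4 d replicates 2 and 3 were left out in turn (0.0656 to 0.0779). KIF4A stood at 32.1, 18.1 and 35.3 CPM at 0 h, 43.6, 43.9 and 46.1 at 4 h, 50.4, 48.0 and 33.4 at 2 d, and 15.8, 27.1 and 22.0 at 4 d (152 to 634 reads). DLGAP5 stood at 38.1, 17.6 and 33.9 CPM at 0 h, 44.1, 39.8 and 37.2 at 4 h, 45.5, 45.7 and 40.1 at 2 d, and 15.1, 28.6 and 24.2 at 4 d (145 to 604 reads). In both 0 h replicate 2 lay under its mates and among the 4 d libraries. At 4 d against 0 h they were -0.40 ± 0.25 and -0.40 ± 0.27, not called. Without 0 h replicate 2 both were called lower (edgeR adjusted p = 0.021 and 0.0156). From 2 d to 4 d the changes were -1.02 ± 0.25 for KIF4A and -0.95 ± 0.27 for DLGAP5 (edgeR adjusted p = 0.00956 and 0.0179), the latter lost when 2 d replicates 1 and 2 and 4 d replicate 1 were left out in turn (0.0553 to 0.0638). KIF11 and HMMR were at -0.53 ± 0.18 and -0.64 ± 0.20 at 4 d against 0 h. The call was lost for KIF11 when 0 h replicates 1 and 3 and 4 d replicate 1 were left out in turn (0.0642 to 0.08). It was lost for HMMR when 0 h replicate 1 and 4 d replicate 1 were left out in turn (0.0581 to 0.0902). The near copy KIF4B had 13 reads and HMMR-AS1, which overlaps HMMR, 33 reads in all 12 libraries, against 4707 for KIF4A and 4129 for HMMR.

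No gene of the midzone and cytokinesis group was called at 4 d against 0 h (1 at an unadjusted p under 0.05, none with DESeq2 or limma-voom). PRC1 and ECT2 were called lower there without 0 h replicate 2 and with GC and length offsets. All 5 were called lower from 2 d to 4 d. PRC1 bundles midzone microtubules, KIF20A and KIF23 are midzone kinesins, ECT2 activates RhoA at the cleavage site and ANLN (anillin) organizes the contractile ring. PRC1 stood at 83.6, 46.8 and 94.0 CPM at 0 h, 82.0, 91.1 and 73.2 at 4 h, 100.3, 101 and 89.8 at 2 d, and 41.2, 58.2 and 57.8 at 4 d (397 to 1330 reads). Its 0 h replicate 2 lay within the 4 d range, and against 0 h the change was -0.51 ± 0.23 (edgeR adjusted p = 0.0691), called without that library (0.00205), with no filter on low counts (0.0353) and with GC and length offsets (0.0235). ANLN stood at 54.6, 46.9 and 52.4 CPM at 0 h, 66.5, 64.3 and 47.3 at 4 h, 81.5, 79.4 and 77.7 at 2 d, and 53.3, 52.6 and 50.6 at 4 d (513 to 1050 reads). Its 2 d libraries lay above all others, and its 4 d libraries fell back among those of 0 h. ANLN rose by 0.63 ± 0.15 at 2 d (edgeR adjusted p = 0.00488) and was 0.02 ± 0.15 at 4 d. Its rise from 4 h to 2 d, 0.42 ± 0.15 (edgeR adjusted p = 0.0391), was lost when 0 h replicate 3, 4 h replicates 2 and 3, 2 d replicates 1, 2 and 3 and 4 d replicates 1, 2 and 3 were left out in turn (0.0512 to 0.138). KIF20A stood at 25.002, 16.6 and 17.6 CPM at 0 h, 29.4, 23.4 and 22.4 at 4 h, 27.7, 30.9 and 28.3 at 2 d, and 17.1, 19.1 and 18.6 at 4 d (165 to 408 reads). It rose by 0.55 ± 0.17 at 2 d (edgeR adjusted p = 0.0258), a call lost when 0 h replicates 2 and 3 and 2 d replicates 1, 2 and 3 were left out in turn (0.0531 to 0.0992). KIF23 stood at 57.2, 48.4 and 54.5 CPM at 0 h, 72.2, 66.8 and 58.8 at 4 h, 65.4, 63.6 and 73.1 at 2 d, and 52.3, 44.7 and 46.2 at 4 d (451 to 920 reads). ECT2 stood at 22.9, 14.3 and 23.1 CPM at 0 h, 34.5, 30.7 and 21.2 at 4 h, 29.1, 27.7 and 28.2 at 2 d, and 13.2, 18.2 and 16.028 at 4 d (127 to 423 reads). Both had 2 d libraries above all 0 h libraries without a call, at 0.34 ± 0.14 and 0.50 ± 0.22. ECT2 at 4 d against 0 h was -0.34 ± 0.22, not called, but called without 0 h replicate 2 (0.0413) and with GC and length offsets (0.0114). From 2 d to 4 d the changes of the 5 genes ran from -0.89 (PRC1) to -0.50 (KIF23). The calls were lost for KIF20A when 2 d replicate 2 was left out (0.0673), for KIF23 when 2 d replicate 3 and 4 d replicates 2 and 3 were left out in turn (0.0692 to 0.0728) and for ECT2 when 4 d replicate 1 was left out (0.0542).

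Of the 9 chromosome structure genes, 4 were higher at 2 d than at 0 h, 3 (33.3%) were lower at 4 d than at 0 h, close to the 29.7% of all genes, and all 9 were lower at 4 d than at 2 d. MKI67 coats mitotic chromosomes, TOP2A untangles sister DNAs, SMC2 and SMC4 are the ATPase core of both condensins, NCAPD2, NCAPG and NCAPH belong to condensin I, and NCAPD3 and NCAPG2 to condensin II. MKI67 stood at 276, 229.6 and 293 CPM at 0 h, 343, 321 and 273 at 4 h, 586, 462 and 467 at 2 d, and 279.7, 309 and 304 at 4 d (2524 to 6842 reads). All 2 d libraries were above every other library, and the 4 d libraries overlapped those of 0 h. It rose by 0.92 ± 0.16 at 2 d, was 0.16 ± 0.16 at 4 d against 0 h, and -0.76 ± 0.16 at 4 d against 2 d (edgeR adjusted p = 0.000809, 0.417 and 0.00435). TOP2A stood at 216, 117 and 240.2 CPM at 0 h, 361, 323 and 234 at 4 h, 414, 379 and 290.1 at 2 d, and 109, 212 and 186 at 4 d (1046 to 5008 reads). The replicates spread widely in every group, and 2 d was above 0 h without overlap, at 0.92 ± 0.30 (edgeR adjusted p = 0.0278). That call was lost when 0 h replicate 2 and 2 d replicates 1 and 2 were left out in turn (0.0764 to 0.0989). The core subunits SMC2 and SMC4 summed to 151 ± 15.6, 225 ± 47.5, 249.9 ± 15.0 and 158 ± 4.58 CPM at 0 h, 4 h, 2 d and 4 d. SMC4 stood at 130.2, 121 and 139.5 CPM at 0 h, 221, 205 and 144 at 4 h, 230.1, 219.6 and 213 at 2 d, and 146, 149 and 144 at 4 d (1334 to 2902 reads). Its 2 d libraries lay above every 0 h and 4 d library, at 0.76 ± 0.17 against 0 h (edgeR adjusted p = 0.00313). The 4 d libraries still lay above 0 h at 0.17 ± 0.16, not called. SMC2 stood at 25.6, 11.734 and 23.4 CPM at 0 h, 40.7, 36.8 and 27.5 at 4 h, 34.5, 30.9 and 21.5 at 2 d, and 6.96, 13.8 and 14.6 at 4 d (67 to 507 reads). It was not called at 2 d, and 0 h replicate 2 lay among the 4 d libraries (-0.78 ± 0.32 at 4 d, edgeR adjusted p = 0.0526), and the call was made without it (0.00686) and without 4 d replicate 3 (0.0452). With GC and length offsets SMC2 was called lower at 4 d against 0 h (-0.957, edgeR adjusted p = 0.00169). From 2 d to 4 d SMC2 fell by 1.30 ± 0.32 (edgeR adjusted p = 0.00965).

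The 3 condensin I subunits summed to 376 ± 59.0, 397 ± 8.78, 426 ± 43.5 and 236 ± 18.4 CPM at 0 h, 4 h, 2 d and 4 d. The 2 condensin II subunits summed to 184 ± 35.6, 225 ± 28.7, 225 ± 15.55 and 118 ± 12.3 CPM. NCAPD3 had the largest fall of the 9 against 0 h and stood at 108, 93.7 and 138 CPM at 0 h, 135, 136 and 107 at 4 h, 138, 122 and 117 at 2 d, and 56.4, 67.9 and 71.1 at 4 d (543 to 1875 reads). Its 4 d libraries were below all others, at -0.80 ± 0.18 (edgeR adjusted p = 0.00165). NCAPG2 stood at 79.0, 53.6 and 80.3 CPM at 0 h, 111, 101 and 85.1 at 4 h, 102, 102 and 92.5 at 2 d, and 48.0, 53.2 and 57.2 at 4 d (462 to 1386 reads). Its rise at 2 d, 0.48 ± 0.17 (edgeR adjusted p = 0.0457), was lost when 0 h replicate 2, 4 h replicate 2, 2 d replicates 1, 2 and 3 and 4 d replicates 2 and 3 were left out in turn (0.0607 to 0.148). At 4 d against 0 h it was -0.42 ± 0.17 (edgeR adjusted p = 0.0501), called when 0 h replicate 2, 4 h replicate 1 or 4 h replicate 3 was left out (0.00531 to 0.0387). It was also called lower there with GC and length offsets (-0.504, edgeR adjusted p = 0.000517). NCAPG stood at 36.8, 21.9 and 42.5 CPM at 0 h, 51.4, 49.5 and 36.9 at 4 h, 54.4, 48.8 and 46.3 at 2 d, and 23.4, 32.7 and 29.5 at 4 d (225 to 682 reads). Its 2 d libraries lay above those of 0 h and of 4 d, with 0.56 ± 0.22 and no call against 0 h (called without 0 h replicate 3 at 0.0289). NCAPD2 and NCAPH were lower at 4 d against 0 h, at -0.73 ± 0.15 and -0.69 ± 0.16. The call from 2 d to 4 d was lost for TOP2A when 2 d replicates 1 and 2 and 4 d replicate 1 were left out in turn (0.0536 to 0.061). For SMC4 it was lost when 2 d replicates 1 and 2 and 4 d replicates 2 and 3 were left out in turn (0.0507 to 0.0636). For NCAPG it was lost when 2 d replicates 1 and 2 and 4 d replicate 1 were left out in turn (0.0544 to 0.0718).

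Per kilobase of the longest transcript (GENCODE 29, so a rough scale), UBE2C had the highest level of the 50, 173 CPM per kilobase at 0 h and 86.8 at 4 d. CDC20 followed at 98.2 and 62.6, PTTG1 at 75.3 and 28.3 and AURKB at 66.8 and 32.9. MKI67 had a level of 20.99 CPM per kilobase at 0 h and 39.8 at 2 d. CENPE and SMC2 were lowest at 0 h, at 2.98 and 3.38.

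The wider pathway was described with further lists that were chosen with earlier results of these data known. At 4 d against 0 h 29.7% of all tested genes were lower and 28.1% higher, with a median change of 0. Of 36 other kinetochore and centromere genes, 26 were lower and 9 were not called (median -0.74), and the remaining gene is not reported here. TRIP13, a checkpoint ATPase that acts on MAD2, was at -2.33 ± 0.20, CENPW at -2.07 ± 0.18 and SKA3 at -1.96 ± 0.16. Of 17 further genes of the anaphase-promoting complex and its partners, 9 were lower and 8 were not called (median -0.54), led by UBE2S, an E2 enzyme (-1.67 ± 0.20), ANAPC1 (-1.19 ± 0.21) and ANAPC5 (-1.16 ± 0.14). Of 19 genes of entry control and MuvB, 11 were lower and 8 were not called, led by MYBL2 (B-MYB, -2.04 ± 0.19), VRK1 (-1.66 ± 0.15) and PKMYT1, a kinase that restrains CDK1 (-1.48 ± 0.35). Of 30 further spindle and cytokinesis genes 15 were lower and 15 were not called (median -0.52), and of 15 centriole genes 9 were lower and 1, CEP192, higher (median -0.51). HAUS7 and HAUS1, subunits of augmin, were at -1.79 ± 0.22 and -1.22 ± 0.20, and TUBG1 (gamma-tubulin), CENPJ and CETN2 at -1.51 ± 0.16, -1.12 ± 0.16 and -0.83 ± 0.17. KIFC1 was called at -2.64 ± 1.04 (edgeR adjusted p = 0.0436). Its 0 h replicate 3 stood at 26.6 CPM and the other 0 h libraries at 1.38 and 1.27 CPM, against 1.25, 1.09 and 2.27 CPM at 4 d. It was not called without 0 h replicate 3 or without any single 2 d or 4 d library, with an edgeR adjusted p of up to 0.825.

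DNA replication genes were set beside the mitosis genes because both serve division. Of 50 replication genes 47 were lower at 4 d against 0 h (29.7% of all genes), 39 of them at least 2-fold (17.6% of all genes), with a median change of -1.38 where the mitosis genes had -0.63. From 2 d to 4 d 46 were lower (13.5% of all genes), with a median of -1.22 against -0.81, and at 2 d against 0 h 7 were lower (18.7% of all genes) and 43 were not called, with a median of -0.19 against 0.23. POLD2, a subunit of DNA polymerase delta, GINS2 and CDC45, parts of the replicative helicase, were at -2.90 ± 0.25, -2.43 ± 0.22 and -2.06 ± 0.17 at 4 d against 0 h. Of 14 tested genes of cell cycle exit 7 were higher and 1, RBL1, lower at 4 d (28.1% and 29.7% of all genes), and 9 were higher at 2 d (16.9% of all genes). The antiproliferative genes BTG2 and BTG1 rose by 2.69 ± 0.19 and 2.06 ± 0.14 at 4 d and CCNG2, an atypical cyclin, by 1.84 ± 0.17. The difference between lists was not tested.

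**Figure D5:**
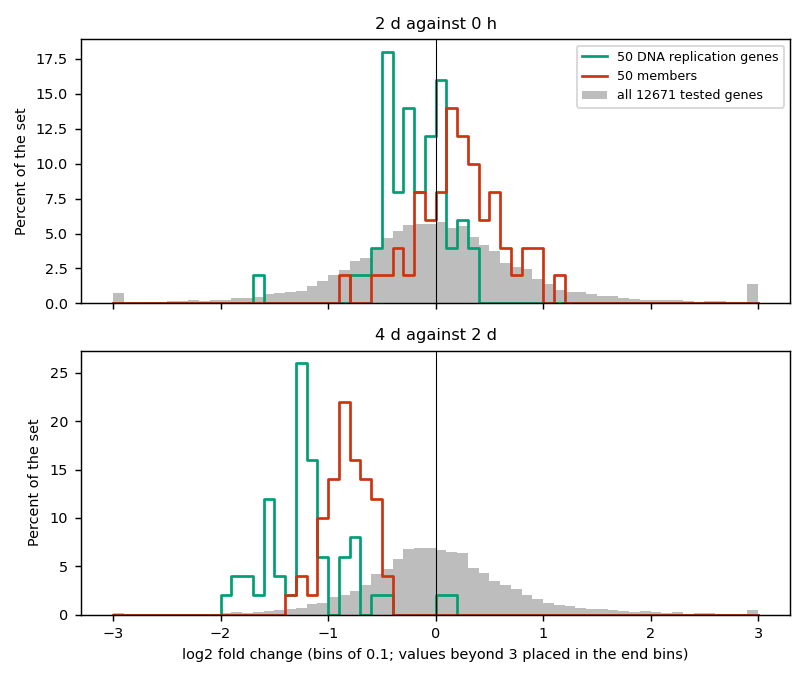
Distribution of log2 fold changes (x axis, bins of 0.1) at 2 d against 0 h (upper panel) and 4 d against 2 d (lower panel), as percent of each set (y axis), for the 50 mitosis genes (red), 50 DNA replication genes (green) and all 12671 tested genes (grey). In the lower panel all mitosis genes lie below 0 (median -0.81) and most replication genes lie farther left (median -1.22), while in the upper panel the mitosis genes centre on 0.23 and the replication genes on -0.19.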

How the data were processed

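RNA-seq of HL-60 cells was read from the deposited per-library files of counts per gene symbol, whole numbers with no normalization. Per the submitters' processing notes, FastQC, Trim Galore 0.6.7, HISAT2 2.1.0 and HTSeq 1.99.2 were used with the hg19 build. Annotation, strand setting and kit were not given in what was used here, so sense and antisense reads cannot be told apart for overlapping genes. The 5 rows of unassigned reads were left out (no feature 13.97% to 28.15%, ambiguous 2.739% to 3.898% and not unique 4.495% to 5.7% of the total).

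In R 4.3.3, 1 model of 4 groups was fitted to all 12 libraries with edgeR 4.0.16 (filterByExpr, TMM, quasi-likelihood test, Benjamini-Hochberg adjustment over 12671 genes, 8 residual degrees of freedom). The code was then run on counts simulated from the means and dispersions of this fit. Such counts cannot show how the fit handles libraries apart on GC content. The SE is the log2 fold change over the square root of F. DESeq2 1.42.0 and limma 3.58.1 (voom) served as alternatives, with other filters, scalings and thresholds and with libraries left out. The 50 genes and the lists were chosen with earlier results of these data known. In each role, library values are given for the gene with the highest mean CPM, those with the lowest and highest change at 4 d against 0 h, and any gene not called, or called higher, there. PTTG1 was added after its values were seen, and reads are given as a range. Of the other lists up to 3 called genes are named by size. Transcript GC content and length come from GENCODE 29, matched by symbol for 94.5% of tested genes and for all 50. Promoters come from RefSeq (GRCh38.p14), the first entry listed where 9 genes had several. Values of 1 further marker list and of 1 gene of the other lists are not reported here.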

Additional observations from a re-analysis of the deposited data

How the results depend on the processing

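No alternative turned the direction of a called gene among the 50. Of the calls, 7 of 10 at 2 d against 0 h, 21 of 30 at 4 d against 0 h, 3 of 7 at 2 d against 4 h, 29 of 46 at 4 d against 2 d and 0 of 1 at 4 h against 0 h were made under all 23 alternative fits, thresholds aside. Depth and 3 libraries a group limit calls of small changes. CDC25C stood near 10 CPM, and the part of its level in its calls was not tested.

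At an adjusted p under 0.01, 0 genes were higher at 4 h and 1 lower and 6 higher at 2 d. At that threshold 22 were lower and 0 higher at 4 d against 0 h. There were 1 lower and 2 higher at 2 d against 4 h, and 28 lower at 4 d against 2 d. With at least 2-fold changes the numbers were 0 higher at 4 h and 0 lower and 1 higher at 2 d. At 4 d against 0 h they were 8 lower (17.6% of all genes) and 0 higher. They were 0 and 0 at 2 d against 4 h, and 9 lower at 4 d against 2 d (4.86% of all genes). Shares of all genes were not taken at 0.01 or for the other 2-fold counts, so those counts show only how the list changes with the threshold. At 4 h against 0 h, library totals gave 1 lower and 0 higher, DESeq2 1 and 3, no filter on low counts 1 and 6, and a fit of 6 libraries 0 higher. In the same order the shares of all genes were 4.24% and 1.34%, 6.41% and 4.16%, 5.21% and 3.22%, and 0.668%. DESeq2 gave 3 lower at 2 d (20.4% of all genes). Library totals gave 24 lower and 1 higher at 4 d against 0 h, beside 27% and 28.8% of all genes. The lower calls of TTK, BUB1, BUB3, KIF11 and HMMR were lost there (edgeR adjusted p = 0.0571 to 0.0999). The fit of 6 libraries lost that of CCNA2 (edgeR adjusted p = 0.0547). At 2 d against 4 h, no filter gave 1 lower (9.52% of all genes) and the fit of 6 libraries 4 lower (22.4%). Without the 3 libraries apart on GC content the lower and higher calls were 3 and 14 at 4 h, 8 and 16 at 2 d, 40 and 2 at 4 d against 0 h, and 8 lower at 2 d against 4 h. In the same order the shares of all genes were 12.6% and 12.3%, 27.3% and 25.5%, 34.3% and 33.8%, and 26.6%. With another 3 libraries left out together (replicate 2 of 0 h and replicate 1 of 4 h and of 4 d), 0 were higher at 4 h, 4 lower at 2 d and 5 lower at 2 d against 4 h. The shares of all genes were 1.66%, 24% and 23.7%. GC and length offsets gave 2 lower and 17 higher at 2 d, and 8 higher with a median of 0.11 at 2 d against 4 h. The shares of all genes were 23.3% and 21% at 2 d and 22% higher at 2 d against 4 h. At 4 d against 0 h the offsets added lower calls for CDC25B, ESPL1, CENPF, PRC1, ECT2, SMC2 and NCAPG2. They lost that of NUF2, and 33.6% of all genes were called lower. The cause of these moves was not tested.

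With single libraries left out, calls ran from 0 to 2 lower and 0 to 6 higher at 4 h (median change 0.12 to 0.32), 1 to 3 and 6 to 11 at 2 d (0.09 to 0.29), 24 to 37 and 0 to 2 at 4 d against 0 h (-0.74 to -0.53), 1 to 2 and 2 to 5 at 2 d against 4 h (-0.03 to 0.02), and 34 to 48 and 0 at 4 d against 2 d (-0.85 to -0.77). Of all genes, 1.28% to 5.59% were called lower and 0.681% to 6.15% higher at 4 h. At 2 d these shares were 12.7% to 20.5% and 11.4% to 18.1%. At 4 d against 0 h they were 25.7% to 30.2% and 24.5% to 29.2%. They were 12.7% to 20.6% and 11.9% to 18.9% at 2 d against 4 h, and 8.46% to 16.4% and 7.85% to 16.3% at 4 d against 2 d.

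Libraries share replicate numbers, but correlations of their deviations ran from -0.813 to 0.677 over 18 same-numbered pairs, with 6 over 0.1, and 2 of 12 libraries correlated best with their own number, so the numbers were not taken to pair the samples. A replicate block gave 0 higher at 4 h, 1 lower and 3 higher at 2 d against 4 h, 29 lower and 1 higher at 4 d against 0 h and 43 lower at 4 d against 2 d. In the same order the shares of all genes were 0.892%, 14.7% and 14%, 27.1% and 25.8%, and 10.2%.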

Other observations

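The spread of the 50 genes between replicates differed by group. The median coefficient of variation of a gene was highest in the untreated libraries, 19.3%, and lowest at 2 d, 7.14% (n = 3 libraries). It was 12.1% at 4 h and 13.03% at 4 d. As the median over the 50 genes, 0 h replicate 2 lay 0.338 log2 units below its mates, while 0 h replicates 1 and 3 lay 0.215 and 0.168 above theirs. Over the 50 genes, Spearman's rho of transcript GC content with the change was -0.433 at 2 d and -0.288 at 4 d against 0 h and 0.137 at 4 d against 2 d, with points that share libraries.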
